A study of Mus musculus with 22 samples.

Results

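Natural killer (NK) cells are innate lymphocytes that kill infected or transformed cells with perforin and granzymes and release interferon-gamma and chemokines. They are steered by inhibitory and activating surface receptors, many of them encoded as a cluster of lectin-like genes, among which the Ly49 (Klra) receptors read self MHC class I. Circulating NK cells depend on the transcription factor Eomes and, as they mature, gain Ly49 receptors, Itgam, Klrg1, Zeb2 and the exit receptor S1pr5. Type 1 innate lymphoid cells (ILC1) share Ncr1, Klrb1c and granzymes with NK cells but lack Eomes in most tissues, stay in the organ and carry Itga1, Cxcr6, Tnfsf10 and, in many sites, Il7r.

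The barcodes described here were chosen by their own counts across all 22 libraries of the study. A barcode was taken when it held at least 200 detected genes and at most 25% mitochondrial unique molecular identifiers (UMIs), at least 1 UMI of Ncr1 (NKp46) or Klrb1c (NK1.1), at least 1 UMI of Nkg7, Gzma, Eomes or Il2rb, and no UMI of Cd3d, Cd3e, Cd3g, Cd79a or C1qa. This gave 634 members among 95843 barcodes that passed the filter, of which 21 lay in sorted blood cells, 570 in dissociated tissue and 43 in unsorted blood mononuclear cells (PBMC). The genes of the rule are described below without a test, because they selected the members.

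All mice carried Prom1-CreERT2 and the Rosa26ZSG reporter, so that tamoxifen given after birth tags Prom1-lineage cells with ZsGreen, and the sorted blood came from tumour-free animals. Prom1 marks epithelial stem cells, and the study states that this Cre does not recombine bone marrow haematopoietic cells. The ntCZC libraries (non-tumour circulating ZsGreen+ cells; 2 Nalcn wt, 4 het and 4 null, 6 male and 4 female, 551 to 649 days old) were sorted from blood after red cell lysis. The 11 tissue libraries (551 to 654 days, 7 male and 4 female) pooled lung, liver, stomach and kidney with epididymis in males or uterus in females; 5 were wt, 2 het and 2 null, and 2 had a title and a strain that gave different Nalcn genotypes and are named here by their titles. The PBMC library came from 1 wt male of 120 days and was not sorted, so age, sorting and tissue cannot be told apart in any comparison with it.

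The lineage genes bore the NK label out only in part. In tissue and PBMC, 25.4% and 34.9% of the members held an Eomes UMI and 24.0% and 67.4% a UMI of the Ly49 receptor Klra4 (18.3% and 45.7% after thinning to 1000 UMIs, with 4.76% in ntCZC). In ntCZC 1 of 21 members held Eomes, and that same member was the only one with Klra4. Another Ly49 gene, Klra9, was found in 71.4% of ntCZC members and in 114 of 570 tissue members. Before thinning, Cxcr6, Itga1 and Il7r were found in 57.1%, 52.4% and 47.6% of ntCZC members. In tissue they were found in 13.2%, 14.9% and 9.47%. Thinned shares are given below, and for Itga1 they lay closer together. The fixed lists could not settle a single name for all 634 barcodes, so they are called Ncr1/Klrb1c members.

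The members were few in ntCZC and came from few mice. In ntCZC 4 of 10 libraries held any, with 17 members in het replicate 4, 2 in wt replicate 1, and 1 each in het replicate 1 and null replicate 1. All 11 tissue libraries held members, from 2 in wt replicate 5 to 96 in the library titled null replicate 1. The pooled share of passing barcodes was 0.996% in ntCZC (95% exact binomial interval 0.617 to 1.52), 0.613% in tissue (0.563 to 0.665) and 6.33% in PBMC (4.62 to 8.44); these intervals cover counting error only, here and below. An empty ntCZC library such as null replicate 2, with 0 of 284 barcodes, allows a share of up to 1.06%, and wt replicate 3, with 11 passing barcodes, allows up to 27.3%.

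**Figure D1:**
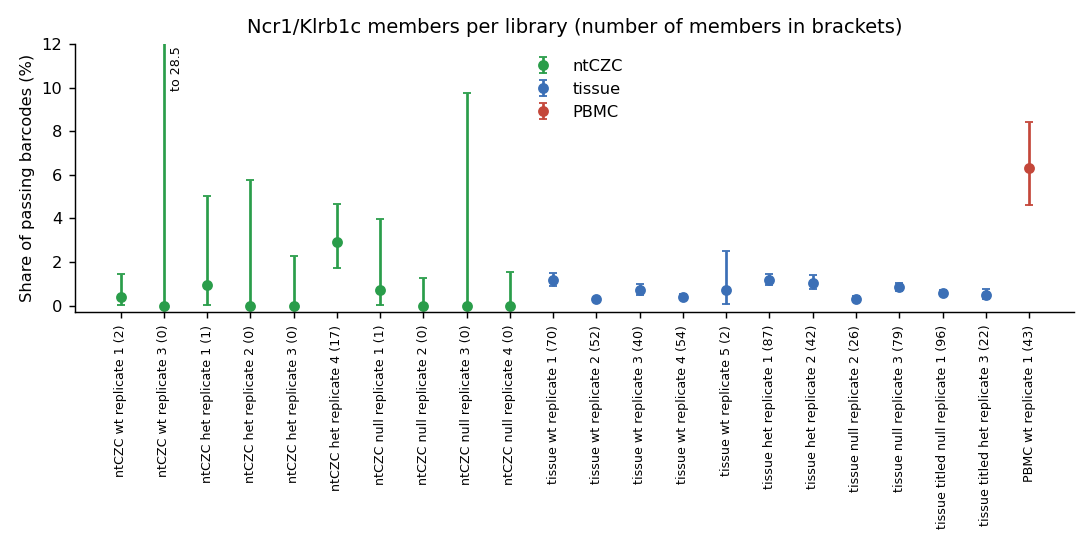
Share of passing barcodes that were members (y axis, percent) in each library (x axis, number of members in brackets), with exact 95% binomial intervals. The PBMC library sits at 6.33%, ntCZC het replicate 4 at 2.94% and the tissue libraries between 0.285% and 1.18%.

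Across libraries the share of passing barcodes was 0.500% ± 0.925 (SD, n = 10) in ntCZC and 0.703% ± 0.322 (n = 11) in tissue, a difference smaller than the spread between libraries (two-sided permutation test, p = 0.569, adjusted p = 0.689 over 5 share comparisons), and its direction turned when barcodes were thinned to 1000 UMIs (0.068 percentage points, p = 0.861). The ntCZC value rested on het replicate 4, whose 2.94% was the highest of the 21 libraries; without it the difference was −0.475 percentage points with p = 0.00813. The 6 ntCZC libraries without a member had limits of 1.06% or more, above the tissue mean, so taken 1 library at a time a share of 0 could not be told from that of tissue. Over the 6 ntCZC and tissue pairs of the same genotype and number, the mean paired difference was −0.650 percentage points, but in 4 of them the ntCZC share was 0 with a limit above the share of its tissue partner, so the sign of these pairs is no evidence of a lower share. CD45 (Ptprc) barcodes made up 90.2% of passing ntCZC barcodes and 49.2% of passing tissue barcodes. Of them, members took 0.573% ± 1.04 in ntCZC and 1.54% ± 0.795 in tissue (permutation test, p = 0.0269, adjusted p = 0.135). The difference of −0.969 percentage points was −0.554 after thinning (p = 0.335) and −1.27 without het replicate 4 (p = 0.000572). With each of 21 libraries left out in turn, this unadjusted p ran from 0.000572 to 0.0494. Het replicate 4 held the highest ntCZC share, so leaving it out lowers the ntCZC mean. The p-values without it, here and for passing barcodes, are therefore not read as support for a lower share. Counted against barcodes with a Cd3 UMI, members took 6.80% ± 7.50 of members plus Cd3 barcodes in the 6 ntCZC libraries with at least 10 such barcodes and 5.30% ± 2.72 in tissue (exact permutation test, p = 0.590). That difference of 1.51 percentage points turned to −1.18 without het replicate 4.

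Depth and RNA quality moved with the kind of library. Members held a median of 4014 UMIs in ntCZC, 1558.5 in tissue and 2007 in PBMC, and mitochondrial UMIs were 2.60%, 12.3% and 2.33% at the median. Detection by gene is therefore also given after each member was thinned to 1000 UMIs; shares by panel and of Cd3-positive barcodes are not matched for depth, and ntCZC members were the deepest. No member barcode occurred as a member of another library, and a member shared its barcode with a passing barcode of another library 12 times among tissue libraries, 1 time between ntCZC and tissue and 4 times between PBMC and tissue.

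The rule genes set the floor of the description. Ncr1, an activating receptor (chromosome 7, 4337724 to 4345164, mm10), was detected in 100% of ntCZC, 63.5% of tissue and 86.0% of PBMC members, and Klrb1c (chromosome 6, 128778485 to 128789215) in 90.5%, 60.5% and 55.8%. Thinning kept 21 of 21 ntCZC, 442 of 570 tissue and 35 of 43 PBMC members, in which Ncr1 was found in 71.4%, 38.5% and 65.7%, and Klrb1c in 33.3%, 37.1% and 34.3%. Nkg7, a granule membrane protein, was detected in 100%, 85.8% and 97.7%, and Il2rb, the shared beta chain of the IL-2 and IL-15 receptors, in 95.2%, 78.1% and 86.0%; thinned, they were found in 90.5%, 72.6% and 97.1% and in 66.7%, 64.7% and 62.9%. Gzma, a granule protease, was found in 66.7%, 68.9% and 97.7% of members (thinned, 52.4%, 62.9% and 100%), and its level in counts per 1000000 UMIs of the summed members (CPM) was 6621 in ntCZC, 3622 in tissue and 19026 in PBMC.

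The members nearest to the limits of the rule differed between the kinds. No ntCZC member rested on a single UMI of Ncr1 and Klrb1c together (lowest 3, median 8), whereas 326 of 570 tissue members (57.2%) and 15 of 43 PBMC members did, and 29 tissue members had exactly 1 UMI in each arm of the rule. Just outside it, 199 tissue barcodes held Ncr1 or Klrb1c with none of the 4 second-arm genes, at a median of 7267 UMIs, and 0 ntCZC barcodes did.

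The other border was Cd3. Barcodes with both arms of the rule, no Cd79a or C1qa and at least 1 Cd3 UMI numbered 43 in ntCZC, above its 21 members, against 119 beside 570 members in tissue and 5 beside 43 in PBMC. In ntCZC these 43 held a median of 15 Cd3 UMIs (range 1 to 36), and 38 of them held at least 5. Trac, the constant region of the T cell receptor alpha chain, was found in 69.8% of the 43 and in 0 of the 21 members. Ncr1 was found in 37.2% of the 43 and in all 21 members. Residence genes were found in both sets, with Cxcr6 in 88.4% and Itga1 in 65.1% of the Cd3-positive barcodes, beside 57.1% and 52.4% of the members, with Eomes in 0 of 43 and 1 of 21. Among the Cd3-positive barcodes, Rgs1, Xcl1 and Cd7 were found in 93.0%, 83.7% and 81.4% in ntCZC. In tissue these genes were found in 38.7%, 29.4% and 35.3% of such barcodes. Their median depths were 4805 and 2309 UMIs, and these shares were not thinned. The difference between members and Cd3-positive barcodes was not tested, since Cd3 and Ncr1 define both sets.

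Constant regions of the T cell receptor beta chain were transcribed in the members without Cd3. Trbc1 was detected in 21 of 21 ntCZC members, 42.1% of tissue members and 27.9% of PBMC members, and after thinning in 76.2%, 27.1% and 8.57%. Trbc2, a near-identical gene next to it whose reads may be split between the copies, was detected in 71.4%, 114 of 570 and 16.3%, and the gamma constant gene Tcrg-C4 in 61.9%, 6.67% and 2.33%. Thinned, Trbc2 was found in 52.4%, 11.5% and 11.4% and Tcrg-C4 in 28.6%, 4.75% and 0%. In B cell barcodes, which should lack these genes, Trbc1 was found in 0 of 252 in ntCZC, which allows up to 1.19%, and in 1.77% of 3000 randomly drawn tissue and 0.439% of 228 PBMC barcodes. A stricter rule that asked for 2 of the 4 second-arm genes and no Trac, Trbc1 or Trbc2 left 0 members in ntCZC, 229 in tissue (40.2%) and 26 in PBMC (60.5%). Because every ntCZC member held Trbc1, the 0 follows from the ban on that gene and is not tested.

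Within the members, barcodes were counted by genes of circulating mature NK cells and genes of tissue-resident cells. The overlap to be expected from detection alone was not computed, and in a shallow barcode a panel may be missed. The counts therefore do not show that the panels mark separate cells. A panel of 17 circulating and mature genes (among them 8 Ly49 receptors, Klrg1, Itgam, Itga2, S1pr5, Cx3cr1, Zeb2, Ly6c2 and Cma1) and a panel of 14 residence genes (Itga1, Itgae, Cxcr6, Tnfsf10, Il7r, Cd200r1, Inpp4b, Tmem176a, Tmem176b, Gpr183, Zfp683, Gzmc, Ckb and Cxcr3) were cut from the lists after values had been seen and carry no test. In ntCZC 13 of 21 members held the residence panel alone, 7 held both and 1 the mature panel alone. The mature panel leaves out the Ly49 gene Klra9, and with Klra9 added to it, a change made after seeing the data, 5 of 21 ntCZC members held the residence panel alone, 15 both and 1 the mature panel alone. In tissue 256 of 570 held the mature panel alone, 116 the residence panel alone, 164 both and 34 neither. In PBMC 36 of 43 held the mature panel alone, 7 both, and none the residence panel alone. Adding Klra9 there left 97 tissue members and 0 PBMC members with the residence panel alone.

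**Figure D2:**
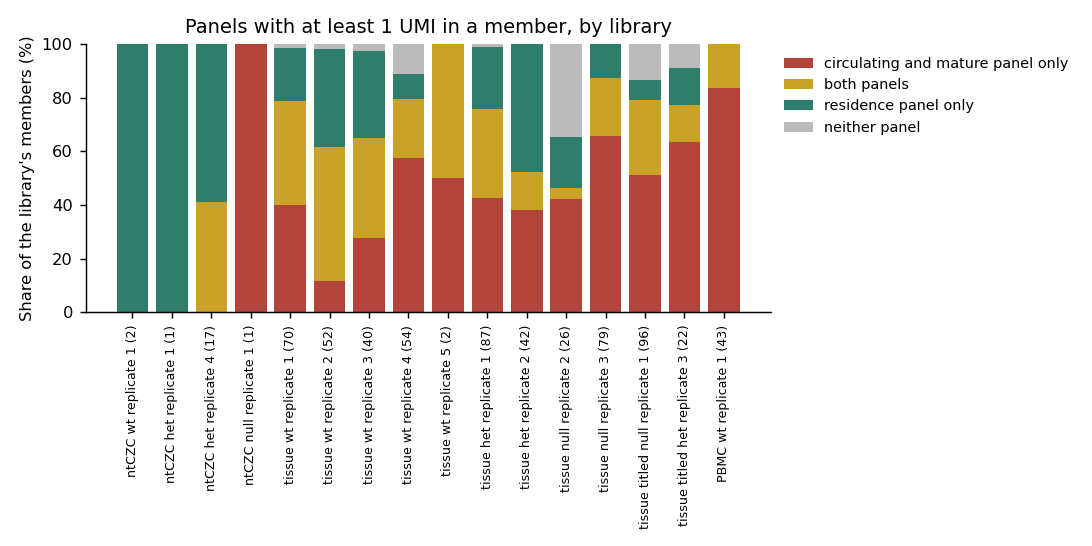
Share of each library's members (y axis, percent) with at least 1 UMI of the circulating and mature panel only, of both panels, of the residence panel only or of neither (colours), by library (x axis, number of members in brackets). Members with the mature panel alone make up 83.7% of PBMC and none of ntCZC het replicate 4, where 58.8% hold the residence panel alone; Klra9 is not in the mature panel.

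As summed UMIs the mature panel held 40 UMIs in ntCZC, 2314 in tissue and 537 in PBMC, and the residence panel 236, 1124 and 9. The mature panel thus took 14.5%, 67.3% and 98.4% of the UMIs of both panels, and 28.5%, 69.1% and 98.4% with Klra9. Gzmb, Irf8, Tbx21, Prdm1 and Lgals1 of the mature NK list of 12 genes are also left out of the panel. That whole list summed to 3404 CPM in ntCZC, 3016 in tissue and 8463 in PBMC. Het replicate 4 stood at 2624 CPM, within the tissue range of 1382 to 4683, so the contrast in mature genes depends on the genes kept. The whole residence list of 17 genes, with Rgs1, Rgs2 and Cd69, summed to 8416, 1478 and 616 CPM. Most of the ntCZC sum was 1 gene: in het replicate 4 Rgs1 made up 6080 of the list's 9302 CPM. The sole ntCZC member of null replicate 1 stood apart from the other 20: it held 25 UMIs of the mature panel and none of the residence panel, and it was the member with Eomes and Klra4. The 10 tissue libraries with at least 5 members ranged from 41.7% mature UMIs in wt replicate 2 to 76.9% in null replicate 3.

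Eomes is not in the panels but is a gene of the rule, so its shares are a description of pooled barcodes of unequal depth. In tissue it was detected in 84 of 256 members with the mature panel alone (32.8%), 48 of 164 with both (29.3%), 7 of 34 with neither (20.6%) and 6 of 116 with the residence panel alone (5.17%), at median depths of 1295.5, 2401, 847.5 and 1671.5 UMIs. In PBMC 14 of 36 members with the mature panel alone held Eomes (38.9%).

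By gene, Eomes (chromosome 9, 118478212 to 118486132) stood at 0, 0 and 0 CPM in ntCZC wt replicate 1, het replicate 1 and het replicate 4, and at 490 CPM, or 2 UMIs, in the single member of null replicate 1. In tissue it ranged from 59.5 to 433 CPM with a median of 181, and in PBMC it stood at 290 CPM. Zeb2, a transcription factor of terminal NK maturation (chromosome 2, 44983632 to 45117395), was at 0 CPM in the same 3 ntCZC libraries, at 106 to 477 CPM in tissue and at 1002 CPM in PBMC. Wt replicate 1 and het replicate 1 held only 2 and 1 members, so for Eomes and Zeb2 a 0 there does not tell them from tissue. Het replicate 4 held 17 members, in which 3 UMIs equal 43.7 CPM, below both tissue ranges. S1pr5, the receptor for exit into blood, was detected in 4.76%, 8.60% and 51.2% of ntCZC, tissue and PBMC members (thinned, 0%, 4.07% and 42.9%), and Eomes, thinned, in 0%, 16.5% and 34.3%. For each of these 3 genes the ntCZC UMIs came from the single member of null replicate 1. Ranges over tissue are, here and below, those of the 10 libraries with at least 5 members.

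Of the residence genes only Rgs1, described below, passed the test between ntCZC and tissue; the others are given as values. Cxcr6, a chemokine receptor of liver-resident lymphocytes, stood at 296, 315 and 350 CPM in ntCZC wt replicate 1, het replicate 1 and het replicate 4 and at 0 in null replicate 1, at 23.4 to 254 CPM in tissue and at 0 in PBMC. Its detection was 57.1%, 13.2% and 0%, and after thinning 28.6%, 7.69% and 0%. The 43 PBMC members without Cxcr6 allow a share of up to 6.98%. Itga1 (CD49a), a collagen-binding integrin, was found in 52.4%, 14.9% and 4.65%, and Il7r, the IL-7 receptor, in 47.6%, 9.47% and 0%; thinned, these shares were 14.3%, 10.4% and 2.86% and 23.8%, 5.66% and 0%. Ckb, creatine kinase B, was found in 61.9%, 8.42% and 0% (thinned, 28.6%, 4.75% and 0%), and Itgae had no UMI in ntCZC members. In the refit with all members described below, Itga1, Cxcr6 and Il7r had log2 changes of 0.16, 1.21 and 1.15 with adjusted p of 0.928, 0.137 and 0.275 (edgeR). Tissue libraries differed among themselves: Cxcr6 was found in 28.8% of the members of wt replicate 2 and in 3.13% of those of the library titled null replicate 1.

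**Figure D3:**
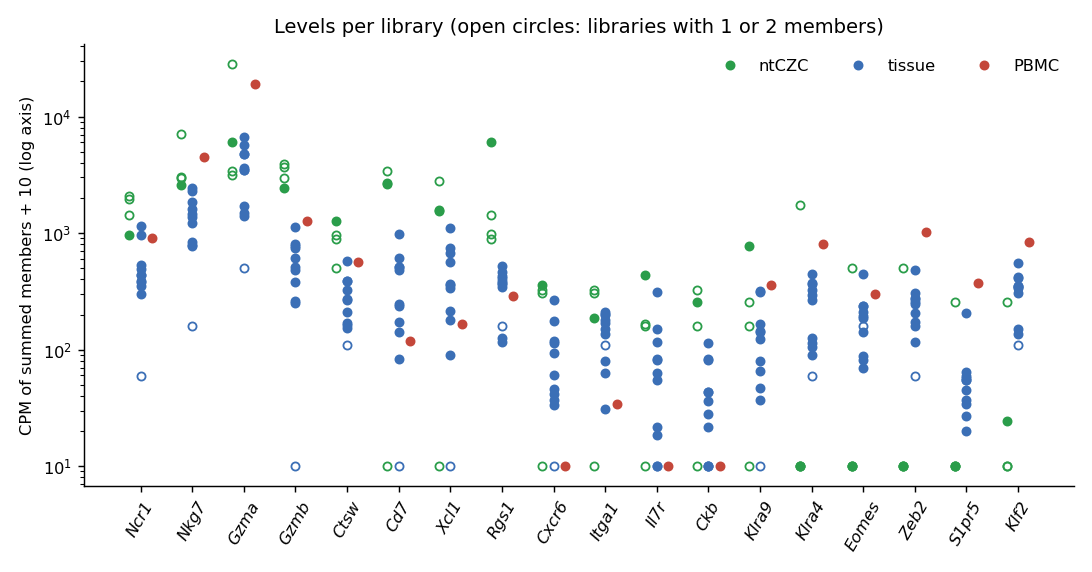
Level of named genes per library (y axis, CPM of the summed members plus 10, log axis) for ntCZC (green), tissue (blue) and PBMC (red); open circles are libraries with 1 or 2 members, and points at 10 are libraries without a UMI. Filled green points (het replicate 4) lie above all filled tissue points for Rgs1, at 6080 CPM, and at 0 for Klra4, Eomes and Zeb2.

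Ly49 receptors were not absent in ntCZC as a family. Their 10 genes summed to 909 CPM in ntCZC, 840 in tissue and 2571 in PBMC, but with UMIs from 4 of 10 genes in ntCZC against 10 and 8. Klra9 was detected in 71.4% of ntCZC members, 114 of 570 tissue members and 41.9% of PBMC members (thinned, 28.6%, 13.1% and 34.3%). Klra4 (chromosome 6, 130043731 to 130067271) and Klra9 (chromosome 6, 130178675 to 130193112) lie in 1 cluster of close copies, and these mice are of mixed B6 and FVB/N background with strain-specific Ly49 genes, so the assignment of reads to single Klra genes is uncertain.

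Effector genes were present in every kind. Gzmb, a granule protease, stood at 2957, 3933, 2420 and 3676 CPM in the 4 ntCZC libraries, all above the tissue range of 239 to 1122 CPM, and at 1256 CPM in PBMC. Ctsw, a granule-associated cathepsin, was detected in 100%, 39.8% and 62.8% of ntCZC, tissue and PBMC members (thinned, 76.2%, 26.7% and 54.3%). Prf1, the pore-forming perforin, went differently, at 148, 315, 292 and 1225 CPM in ntCZC, 106 to 813 CPM in tissue and 2125 CPM in PBMC. Ccl5, a chemokine for T cells and monocytes, was found in 100%, 92.8% and 95.3%. Xcl1, a chemokine that draws cross-presenting dendritic cells, was found in 90.5%, 29.6% and 6.98%, and Cd7, a lymphoid surface protein, in 95.2%, 34.4% and 16.3%. Thinned, Ccl5 was found in 100%, 88.2% and 100%, Xcl1 in 66.7%, 22.4% and 2.86%, and Cd7 in 85.7%, 25.1% and 14.3%. Xcl1 and Cd7 were at 0 in the single member of null replicate 1.

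To ask which of these differences exceed the spread between libraries, UMIs of the members were summed per library and fitted with edgeR's quasi-likelihood test with sex as a covariate. Of the ntCZC libraries only het replicate 4 held the 5 members that the fit required, so it was compared, alone, with 10 tissue libraries, and its variance was assumed to be that of the tissue libraries; the p-values of this fit therefore concern that library and not ntCZC as a group. The fit pools organs, and in such sums fewer cells of a type and less RNA per cell cannot be told apart. Of 2834 genes tested, 6 (0.212%) were higher and 14 (0.494%) lower in ntCZC at an adjusted p of 0.05, and the median log2 change over all tested genes was −0.34. A refit added after seeing the data, with every library that had a member (4 ntCZC, 11 tissue), called 35 of 1365 genes higher (2.56%) and 144 lower (10.5%). That refit contains het replicate 4 and the 10 tissue libraries of the first fit, so calls that both share are no independent support. Its other ntCZC libraries held 2, 1 and 1 members, fewer than the 5 that the first fit required. Single cells thus stand as libraries in the refit, and its p-values carry that limit wherever they are given. Without het replicate 4, that refit called 5 higher and 61 lower of 1692 genes. In the fit with het replicate 4 alone, leaving out tissue wt replicate 1, 3 or 4, het replicate 1 or 2, null replicate 2 or 3 or the library titled null replicate 1 left 1 or 2 higher and 0 to 7 lower genes.

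Rgs1, a regulator of G protein signalling that damps chemokine responses and marks tissue-resident lymphocytes (chromosome 1, 144242296 to 144249242), was called under more alternatives than any other named gene. It stood at 6080 CPM in het replicate 4, at 887, 1416 and 980 CPM in the other 3 ntCZC libraries, at 106 to 511 CPM in tissue and at 278 CPM in PBMC. All 4 ntCZC libraries lay above the tissue range. The fold over the tissue mean was 17.7, and the log2 change was 3.81 ± 0.45 (SE, adjusted p = 0.0036, edgeR). It was called under 19 of 21 alternatives; in the refit without het replicate 4 the log2 change was 0.84 (adjusted p = 0.245), and in the refit with a replicate block it was 0.87 (adjusted p = 0.544). Among B cells, the change was smaller, from 104 CPM in tissue to 254 CPM in het replicate 4, but the test of the difference between the 2 classes did not pass (log2 difference 2.65, adjusted p = 0.338).

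The other genes called higher were S100a4, a calcium-binding protein of motile cells (log2 2.38, 1108 CPM against 53.2 to 288 in tissue), Mfsd10, a membrane transporter (3.44), Ypel3 (2.23), the corepressor Aes (1.78) and the ubiquitin gene Ubb (1.78), each at an adjusted p between 0.041 and 0.044 (edgeR). Ypel3, Aes and Ubb were also higher in B cells of the same library, at 664, 531 and 3744 CPM against 79.4, 148 and 1139 CPM in tissue B cells.

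Itga4, the alpha-4 integrin used to cross vessel walls, and Zeb2 were the lower genes of NK biology. Each had no UMI in het replicate 4, where 3 UMIs among 68585 equal 43.7 CPM, so that Itga4 was at least 6.26-fold and Zeb2 at least 5.48-fold below the tissue mean (adjusted p = 0.044 and 0.041, edgeR). PBMC held the most of both, at 1352 CPM for Itga4 and 1002 CPM for Zeb2. In the refit with all members they stayed lower (adjusted p = 0.0147 and 0.022), and without het replicate 4 neither passed (0.164 and 0.258). Lgals1, a galectin, was at 14.6 CPM in het replicate 4 against 298 to 1091 in tissue (adjusted p = 0.041) but at 6371 CPM in the single member of null replicate 1, and in the refit with all members its adjusted p was 0.977.

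Of 24 heat shock and immediate-early genes tested, Hspa1a, Hspa1b (both heat shock chaperones) and Nr4a1 (an early gene of activation) were called lower and none higher, with a list median of −2.68, or −2.23 with the genes without a UMI at their bound. Of the 24, 13 lay below and 4 above the tissue range, as did 398 and 623 of all 2834 genes. The refit with all members called 9 of 22 lower and 1 higher. The higher one was Dusp2, a phosphatase induced on activation, named after its values were seen. It stood at 758 CPM in het replicate 4 against 26.6 to 258 CPM in tissue (log2 2.24). Its adjusted p in the refit with all members was 0.0265 (edgeR). Without het replicate 4 Dusp2 did not pass that refit (log2 0.37, adjusted p = 0.784, edgeR). Hspa1a was at 0 CPM in all 4 ntCZC libraries and in PBMC and at 164 to 571 CPM in tissue, and Hspa1b at 0 and 189 to 1277 CPM. Of the ntCZC libraries only het replicate 4, where 3 UMIs equal 43.7 CPM, had the depth to set such a 0 against tissue. In B cell barcodes Hspa1a was likewise at 0 CPM in het replicate 4 and at 417 CPM in tissue. Tissue libraries were enzymatically dissociated and blood libraries were not, so dissociation and kind cannot be told apart. The mitochondrial genes mt-Co2, mt-Co3, mt-Nd1 and mt-Nd4 and the ribosomal protein genes Rps15 and Rpl23a were lower, beside the mitochondrial shares given above. Ptprb, an endothelial phosphatase, was lower too, with no UMI in het replicate 4 against 79.4 to 351 CPM in tissue.

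By list, few members passed. The 15 further NK identity genes tested had a median log2 of 0.53 in the fit with het replicate 4 alone, which called none of them. In the refit with all members 4 of 14 were higher, namely Ctsw (adjusted p = 0.019, edgeR), Gzmb (0.0051), Cd7 (0.0148) and Fcer1g (0.016). The IL-18 receptor chain Il18rap was lower (0.0229). Without het replicate 4 none of these genes passed that refit (0.385, 0.0632, 0.187, 0.0888 and 0.210). Of the 6 Ly49 genes tested 0 were called, with a median of −1.02 when the 3 without a UMI in het replicate 4 are set at their bound of 3 UMIs (−4.50 as fitted, which is no measured size); Klra4, at 0 CPM in het replicate 4 and 79.8 to 435 in tissue, had an adjusted p of 0.092, and Klra9, at 758 against 26.6 to 308 CPM, one of 0.177. The refit with all members called 1 of 4 Ly49 genes lower, Klra7 (adjusted p = 0.0175, or 0.194 without het replicate 4, edgeR). Without that library the log2 change of Klra9 turned to −1.07. Of 14 residence genes 1 (Rgs1) was higher and 0 lower, with a median of 1.18; 9 of the 14 lay above the tissue range, as did 623 of all 2834 genes. Of 10 mature NK genes 2 (Zeb2 and Lgals1) were lower and 0 higher, with a median of −1.81 when the 5 without a UMI are set at their bound (−5.19 as fitted); 6 of the 10 lay below the tissue range, as did 398 of all genes. The refit with all members called 1 of 7 residence genes higher, and 1 of 7 mature NK genes higher and 2 lower.

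Among receptors and factors, Cd160, a receptor for HVEM and MHC class I molecules, stood at 714 CPM in het replicate 4 against 0 to 218 in tissue (log2 3.04). Klf2, a factor that maintains S1pr1, stood at 14.6 against 127 to 549 CPM (log2 −4.58). Ly6c2 and Cxcr4 had no UMI in het replicate 4, against at least 131 and 71.4 CPM in every tissue library. Cd160, Klf2, Ly6c2 and Cxcr4 were not called in the fit with het replicate 4 alone. Their adjusted p in the refit with all members was 0.0051, 0.0050, 0.0345 and 0.0053 (edgeR). Without het replicate 4 none of them passed that refit (0.385, 0.084, 0.332 and 0.077). The 13 MHC class I genes had a median log2 of 0.83 in the fit with het replicate 4 alone, which called none of them. H2-D1 stood there at 4360 against 718 to 2085 CPM in tissue. With all members the refit called 3 of 11 higher, H2-D1 (adjusted p = 0.0124, edgeR), Psmb8 (0.0286) and H2-Q4 (0.0356). Without het replicate 4 none of the 3 passed (0.129, 0.339 and 0.283). Counts in other lists were 1 of 23 transcription factors (Zeb2), 1 of 19 trafficking receptors (Itga4), and 0 called of 13 granule genes, 7 cytokine and chemokine genes, 8 cytokine receptors, 13 signalling adaptors, 9 NKG2 and other lectin receptors, 4 activating and checkpoint receptors, 10 immature NK genes, 5 glucocorticoid-response, 12 interferon-stimulated and 6 proliferation genes. The refit with all members called 4 of 15 transcription factors and 3 of 12 trafficking receptors lower, 2 of 7 signalling adaptors higher, 2 of 4 glucocorticoid-response genes lower, 2 of 9 granule genes higher and 2 lower, 2 of 6 immature NK genes higher and 1 lower, 1 of 6 cytokine and chemokine genes and 1 of 3 activating and checkpoint receptors higher, 1 of 5 cytokine receptors and 1 of 4 proliferation genes lower, and 0 of 7 lectin receptors and 0 of 1 interferon-stimulated gene.

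Whether the change between ntCZC and tissue was larger in the members than in B cells of the same libraries was tested as a class by kind term, with het replicate 4 again the only ntCZC library and its variance assumed to be that of tissue, so that the term concerns that library. Of 8068 genes, 1 (0.0124%) was higher and 2 (0.0248%) lower in the members relative to B cells. Klf2 stood at 14.6 CPM in members of het replicate 4 and 326 CPM in those of tissue, a change that did not pass by itself, and at 1546 and 366 CPM in B cells (log2 difference −6.61, adjusted p = 0.0010, edgeR). With T cell barcodes in place of B cells the log2 difference was −4.44 and its adjusted p was 0.090. Ctsd, a lysosomal protease, stood at 700 and 781 CPM in members of het replicate 4 and tissue and at 24.2 and 807 CPM in B cells (log2 difference 4.78, adjusted p = 0.033). Rasa3, a negative regulator of Ras and Rap1, stood at 0 and 62.0 CPM in members, at least 1.42-fold lower against the limit of 3 UMIs, and at 205 and 50.5 CPM in B cells (adjusted p = 0.043). Against T cells neither Ctsd nor Rasa3 passed (adjusted p = 0.815 and 0.404).

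RNA of other cell types moved with the kind. The erythroid list of 5 genes summed to 11330 CPM in tissue members, with 265 of 570 members holding a UMI, and to 35.0 CPM in ntCZC and 266 CPM in PBMC. Of the organ lists, hepatocyte (8 genes), lung (6), stomach (8) and epididymis or uterus (8) markers were at 0 in all ntCZC and PBMC members, and kidney tubule markers (7 genes) were too; in tissue members they summed to 341, 899, 1980, 10775 and 703 CPM. The epididymis and uterus sum ran from 16.8 to 75126 CPM over tissue libraries with at least 5 members. Tissue B cell barcodes carried the same lists, at 281, 5986, 2186, 1554 and 1347 CPM. Monocyte and macrophage markers summed to 1631 CPM in tissue members, with all 12 genes detected, and to 23.3 CPM in ntCZC and 24.1 CPM in PBMC, with 11 and 10 of the 12 genes at 0. B cell markers summed to 187, 472 and 72.4 CPM, with Cd79b and Ms4a1 at 0 in ntCZC and PBMC. In the fit of het replicate 4 no gene of these lists was called, and in the refit with all members 4 of 4 erythroid genes were lower and Trbc1 and Trbc2 higher. The pooled tissue sums include wt replicate 5, whose 2 members are outside the fit; without it the stomach sum was at most 1060 CPM in any library. The part of this RNA in the differences between kinds was not tested.

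**Figure D4:**
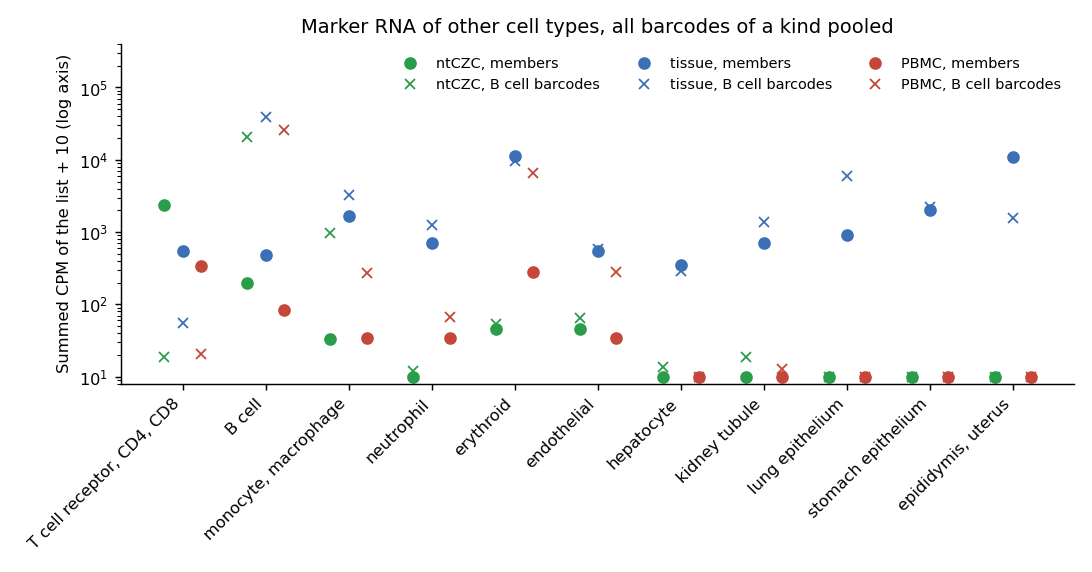
Summed CPM plus 10 (y axis, log axis) of marker lists of other cell types (x axis) in members (circles) and B cell barcodes (crosses) of ntCZC, tissue and PBMC, all barcodes of a kind pooled. Hepatocyte, kidney, lung, stomach, epididymis and uterus lists sit at 0 in ntCZC and PBMC members and between 341 and 10775 CPM in tissue members.

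Nalcn, the channel gene deleted in the study, had 0 UMIs in all 634 members; at this depth that limits members with a UMI, not members that express it, and its deletion could not be read in them. Prom1 had 7 UMIs in tissue members and 0 in ntCZC and PBMC members.

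Members did not differ detectably in number by Nalcn genotype. In tissue their share was 0.835% ± 0.381 in het and null libraries (n = 4) and 0.658% ± 0.344 in wt libraries (n = 5; exact permutation test, p = 0.444, smallest possible p 0.00794). In ntCZC it was 0.574% ± 1.03 (n = 8) against 0.204% ± 0.288 (n = 2, exact permutation test, p = 0.689, smallest possible p 0.0222). Without het replicate 4, at 2.94%, that difference fell from 0.370 to 0.032 percentage points. A p that misses the threshold does not show equal shares.

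By genotype, the count of genes called in tissue members depended on the settings. Of 2079 genes tested over 4 het and null and 4 wt libraries, 0 (0%) passed in edgeR's quasi-likelihood test, 88 had an unadjusted p below 0.05, DESeq2 called 1, no filter on low counts left 98 called, and null against wt alone gave 11. The gene of smallest p, chosen after its values were seen, was Cxcl2, a neutrophil chemokine, at 284, 1597, 3024 and 222 CPM in wt replicates 1 to 4 and at 137, 0, 79.8 and 15.8 CPM in het replicates 1 and 2 and null replicates 2 and 3 (log2 −4.12, adjusted p = 0.726). The wt libraries spread over more than a factor of 10. S100a8, a neutrophil protein also chosen after its values were seen, stood at 478 ± 486 CPM (n = 4) in wt and 46.8 ± 48.6 CPM (n = 4) in het and null libraries. Wt replicate 3 held the highest value of both Cxcl2 and S100a8 (3024 and 1131 CPM). The same library stood out in summed neutrophil markers, S100a8 among them (3465 CPM, next 1334). The part of neutrophil RNA in these differences was not tested. Ifng, S100a6 and Msrb1 came between Cxcl2 and S100a8 by p. In wt libraries they stood at 54.6 to 70.1, 1111 to 1458 and 140 to 298 CPM. In het and null libraries they stood at 78.8 to 290, 254 to 678 and 36.3 to 133 CPM.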

How the data were processed

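Single-cell RNA was captured with the 10x Genomics 3′ v3 chemistry. The authors deposited UMI counts per gene and barcode, made with Cell Ranger (2.1.1 in the processing notes, 3.0.2 in the file headers) on mm10; Seurat is also listed. Hashtag assignments of cells to organs were not used here. Libraries held 50 to 621 barcodes and 161541 to 2600526 UMIs in ntCZC, 1856 to 27857 barcodes and 8571019 to 139793927 UMIs in tissue, and 752 barcodes and 1422144 UMIs in PBMC.

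Members, gene lists and panels were chosen with earlier results of these data known. B cell barcodes held Cd79a and no Cd3, C1qa, Ncr1 or Klrb1c; T cell barcodes held Cd3 and none of the others. Libraries, never barcodes, were the replicates; the labels name no mouse, but 4 ntCZC and tissue pairs of the same genotype and number also match in sex and age in days and may come from the same mice, and p-values measure the spread between these libraries. Shares were compared by two-sided permutation tests (all regroupings where a group had fewer than 10 libraries, otherwise 100000 resamples). UMI counts of members were summed per library (at least 5 members) and fitted with edgeR 4.0.16 (TMM, filterByExpr, quasi-likelihood, Benjamini-Hochberg), with DESeq2 1.42.0 as an alternative. Scripts ran in Python 3.11.15 with scanpy 1.11.5 and R 4.3.3 and were tested on simulated data. Doublets were not removed in the main results; an alternative dropped the highest Scrublet scores at 0.8% per 1000 barcodes, at most 25%. Named genes were up to 4 per list by smallest p, and outside the lists up to 6 per direction by size of change with at least 100 CPM; genes of the class by kind term were named where called. Positions are from GENCODE vM21. Alternatives were another normalization, DESeq2, no filter, no sex term, stricter barcode filters, member minima of 10 and 20, thinning, a stricter rule, T cells for B cells, a replicate block and each library left out. Same-numbered wt and deleted tissue libraries did not deviate together over genes (r between −0.21 and 0.15), so those numbers were not taken as pairs; between ntCZC and tissue too few members allowed that check, and the paired share difference is given beside the unpaired one. Some genes among those called or listed are not reported here.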

Additional observations from a re-analysis of the deposited data

Results flagged for a closer look

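With 48 groups of libraries examined for a single value far from the rest, 14 stood out. A chance rate of about 1 in 20 does not apply here, because groups share libraries and most ntCZC libraries held no member. The count of 14 is therefore not set against chance. ntCZC het replicate 4 stood above the other ntCZC libraries in its share of passing barcodes (2.94%, next 0.926%) and of CD45 barcodes (3.29%, next 1.10%), among all 10 libraries and among the 8 het and null ones; it supplied 17 of the 21 ntCZC members. Among the 4 het and null tissue libraries, null replicate 2 had the lowest proportion of members among members plus Cd3 barcodes, 2.92% against 7.49% for the next.

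Summed lists in tissue members stood apart in single libraries. Interferon-stimulated genes reached 3328 CPM (next 1454) and kidney tubule markers 1597 CPM (next 824) in wt replicate 2. Proliferation genes reached 5440 CPM (next 3144) and T cell receptor genes 1458 CPM (next 761) in the library titled het replicate 3. B cell markers reached 2502 CPM (next 786) in wt replicate 4. Neutrophil markers reached 3465 CPM (next 1334) and fibroblast and smooth muscle markers 2322 CPM (next 888) in wt replicate 3. Erythroid markers reached 28780 CPM (next 13264) and markers of other innate lymphoid cells and mast cells 277 CPM (next 107) in wt replicate 1.

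For 3 genes the change between ntCZC and tissue differed between the members and B cells, by −6.61 (Klf2) and 4.78 (Ctsd) on the log2 scale and, for Rasa3, by a fitted −11.24 that rests on 0 UMIs in het replicate 4 and is no measured size. Under the barcode filter, outside every comparison, 254 further tissue barcodes carried the genes of the rule. In tissue null replicate 3, labelled female, 3 of 79 members held a Y-linked UMI, and 0 members of the other libraries labelled female did.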

How the results depend on the processing

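The share of passing barcodes (−0.204 percentage points, ntCZC minus tissue) turned to 0.068 after thinning, and was −0.265 under the stricter rule, where the ntCZC share is 0 by construction. With pairs of the same genotype and number as a replicate block it was −0.650 (p = 0.03125), and over the 4 pairs that also share sex and age, chosen after seeing the data, −0.705 (p = 0.125), each the smallest p possible; 4 and 3 of these pairs set an ntCZC share of 0 with a limit above the tissue share, so the sign was nearly fixed by barcode number and neither value supports a lower share. The CD45 share difference fell to −0.554 after thinning (p = 0.335). Members per members plus Cd3 barcodes turned to −2.07 under the stricter rule, again by construction, and to −1.18 without ntCZC het replicate 4. Leaving out each library in turn gave −0.475 to −0.148, −1.27 to −0.842 and −1.18 to 2.87 for these 3, 0.069 to 0.356 for tissue and 0.032 to 0.574 for ntCZC by genotype.

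Genes higher and lower in ntCZC numbered 25 and 70 with DESeq2, 20 and 139 without a filter, 16 and 26 without the sex term, 1 and 0 with the gene minimum raised to 500 and the mitochondrial limit lowered to 20%, 1 and 7 without the highest Scrublet scores, 3 higher without the 2 libraries of conflicting genotype, and 1 to 7 and 0 to 16 with a library left out. Chosen after seeing the data, all libraries with a member gave 35 and 144, a replicate block on them 9 and 32, and the same without het replicate 4 61 lower. The class by kind term gave 2 and 8 genes against T cells, 4 and 15 without a filter, and 0 to 2 and 1 to 4 with a library left out. By genotype, DESeq2 called 1 gene, no filter 98, null against wt 11, the replicate block 0, and 0 to 2 were called with a library left out (2 without wt replicate 1). In the fit of all libraries with a member, leaving out het replicate 4 turned the sign of Il7r (−0.45), Klra4 (0.0016), Klra9 (−1.07), Lgals1 (0.47) and Tmem176b (−0.96), and the replicate block that of Klra9 (−1.99). Of 891 values of 43 named genes under alternatives, 669 kept direction and call, most of them of genes not called to begin with, and 53 gained a call. The 14 called genes among them had 291 such values, of which 127 were still called and 164 were not. With Klra9 in the mature panel, ntCZC members with the residence panel alone fell from 13 to 5. Fits with at least 20 members, under the stricter rule, without het replicate 4 at 5 members or with a replicate block at 5 members could not be made. The cause of these changes was not tested. Depth limits what members of 1558.5 UMIs can show: a gene missing in one may be present.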
